A study of Mus musculus with 8 samples.

Results

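The chemokine system of gastric cancers of the squamous-columnar junction (SCJ) is described here through the chemokine ligands and chemokine receptors that carry a systematic symbol in the expression table. Members were chosen by gene symbol alone (Ccl, Cxcl, Xcl, Ccr, Cxcr, Xcr and Ackr followed by a number, with Cx3cl1 and Cx3cr1), which gave 58 of 23361 genes, of which 38 encode ligands and 20 encode receptors. Chemokine genes that the table lists under other symbols, such as Pf4, or under older symbols, as holds for some atypical receptors, are not members. RNA was sequenced from 5 cancers and from the SCJ of 3 control mice. The cancers carried the genotype Trp53-/-Rb1-/- and came from mice with a tamoxifen-inducible Cre in the Lgr5 locus, floxed Trp53 and Rb1 alleles and the Ai9 tdTomato reporter, so that both genes were deleted in Lgr5+ cells and their progeny. The control tissue was the SCJ of wild type mice of matching age, separated from forestomach and antrum. Each sample was a dissected piece of tissue, and labels do not tie samples to individual animals beyond their numbers, so p-values measure the spread between these samples. Ages, sexes and read numbers of the single samples were not used here.

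The SCJ is the border between the squamous forestomach and the glandular stomach. Chemokines are small secreted proteins that steer cells along concentration gradients through receptors coupled to G proteins. They are named for the spacing of the first cysteines (CC, CXC, XC and CX3C). Inflammatory members such as Ccl2 and Cxcl1 are induced in damaged tissue and draw monocytes and neutrophils, whereas homeostatic members such as Cxcl12, Cxcl13 and Ccl21a place cells in bone marrow and lymphoid organs. In the gastrointestinal mucosa, epithelial cells themselves secrete members such as Ccl28, Ccl20, Cxcl16 and Cxcl17.

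Levels are given as FPKM, sequenced fragments divided by transcript length and library size, which can be compared between genes. The deposited values are rounded to whole numbers, so a step from 0 to 1 FPKM is the smallest that can be seen, and the depth of each library is unknown. Differences are log2 fold changes of FPKM + 1, cancers minus controls, which understate the change of low genes. They were tested with limma over all 14357 genes with at least 1 FPKM in at least 3 samples, at an adjusted p of 0.05. Summed over all genes, FPKM came to between 403569 and 573858 per cancer and between 887141 and 992550 per control, where the 10 most abundant genes took 39.3% to 44.3% of the sum against 11.1% to 19.6% in the cancers. Scaling all libraries to an equal sum (TPM) moved the median of log2 fold changes over all genes from -0.04 to 0.81. Of the deleted genes, Rb1 was lower in the cancers (log2 fold change -0.90, standard error 0.16, limma adjusted p = 0.0059), whereas Trp53 did not pass the threshold (-0.08, standard error 0.33, limma adjusted p = 0.87). With TPM the Rb1 call was lost (-0.054, limma adjusted p = 0.84) and Trp53 was called higher (0.86, limma adjusted p = 0.020).

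Summed chemokine levels were higher in the cancers than in the control tissue, and 3 of the 5 cancers were led by another gene than the controls. Of the 58 members, 10 were listed at 0 in every sample, among them the receptors Ccr3, Ccr4, Ccr8 and Ccr9. The other 48 were above 0 somewhere, and 24 reached at least 10 FPKM. Members above 0 numbered 40, 32, 37, 33 and 31 across cancers 1 to 5, compared with 27, 22 and 24 for controls 1 to 3. The same count over all genes is not given here, so these numbers do not set the family apart from other genes. The summed level of the members was 496, 354, 308, 458 and 512 FPKM across cancers 1 to 5, compared with 273, 236 and 251 FPKM for controls 1 to 3, and the groups did not overlap. In the controls a single gene, Cxcl17, took 52.4%, 61.0% and 64.1% of that sum. The leading member of the cancers changed from tumor to tumor. It was Cxcl13 in cancer 1 (19.8% of the sum), Cxcl17 in cancers 2 and 4 (33.1% and 44.3%), Ccl28 in cancer 3 (23.1%) and Cxcl1 in cancer 5 (21.9%). With Cxcl17 left out, a choice made after its values were seen, the sums were 496, 237, 282, 255 and 444 FPKM across cancers 1 to 5, compared with 130, 92 and 90 for controls 1 to 3.

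**Figure D1:**
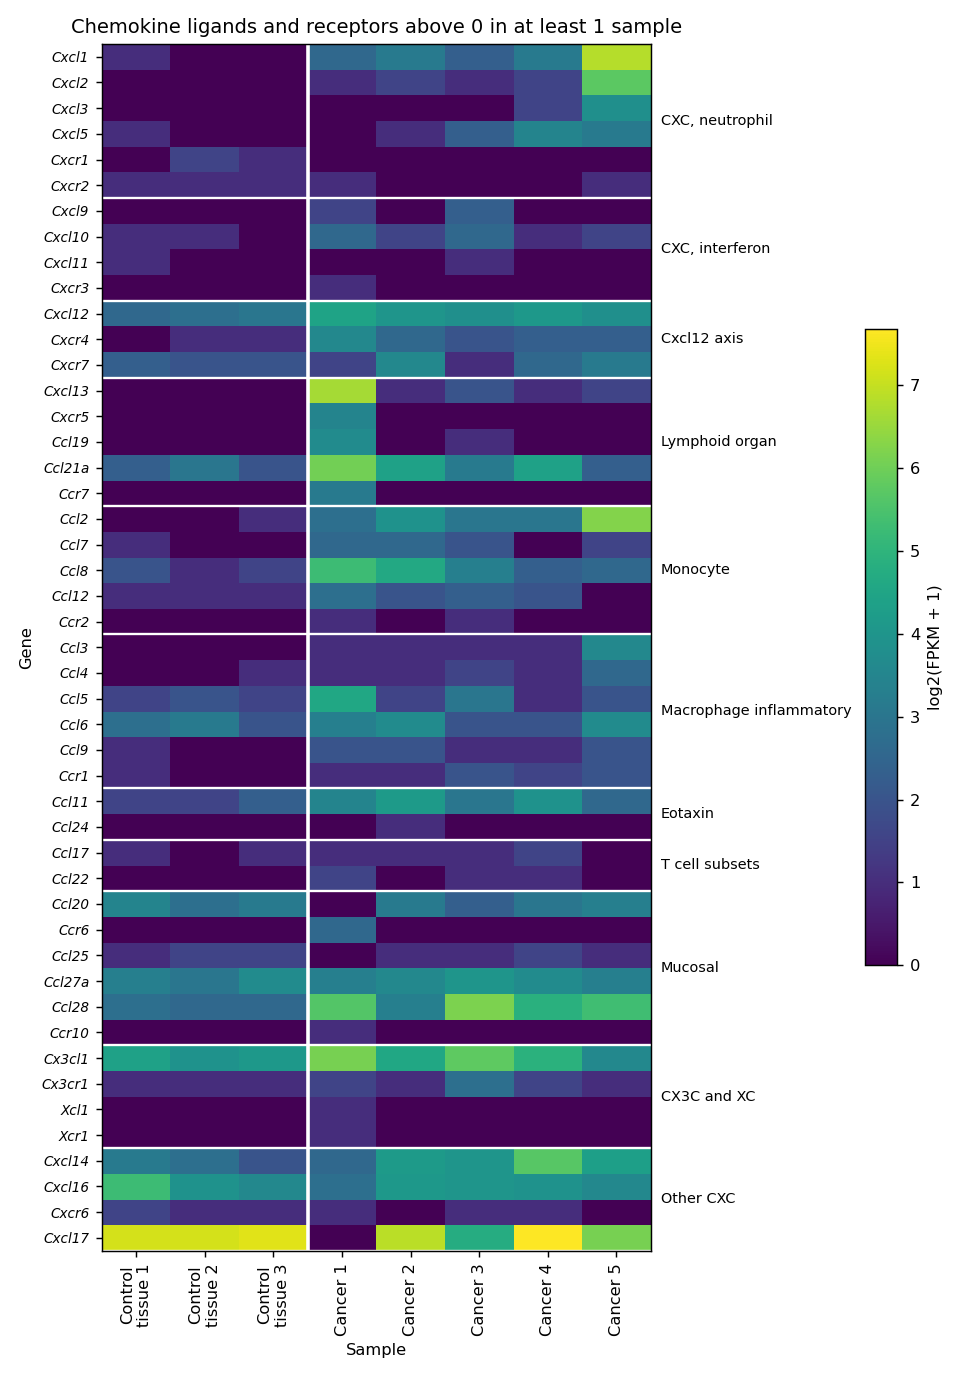
Level of 47 members above 0 in at least 1 sample, as log2(FPKM + 1) by color, with 3 control tissue samples on the left, 5 cancers on the right and genes grouped by role. Cxcl13 (98 FPKM) and the other lymphoid organ members are brightest in cancer 1, Cxcl1 (112 FPKM), Cxcl2 and Cxcl3 in cancer 5, and Cxcl17 is bright in every sample but cancer 1, where it is listed at 0.

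Of the 58 members, 34 (27 ligands and 7 receptors) passed the filter on low values and were tested. Of these, 9 rose in the cancers at an adjusted p under 0.05, or 26.5% of the members tested, where 16.2% of all genes tested were called higher. They included the ligands Cxcl12, Ccl2, Ccl28, Ccl11, Cxcl1 and Ccl9 and the receptors Cxcr4 and Ccr1. None fell in limma (0 at an unadjusted p under 0.05 as well), where 18.3% of all genes tested were called lower. For 11 members every cancer lay above every control, or 32.4% of those tested beside 14.4% of all genes, and for 0 every cancer lay below every control, beside 19.8% of all genes. The median log2 fold change of the members tested was 1.15, beside -0.04 for all genes tested. A member nearly at 0 in the controls passed the filter only through its level in the cancers, which held for many here, with 15 of the 34 tested and 6 of the 9 called below a control mean of 1 FPKM, so these shares do not set the family apart from other genes. With TPM, 19 members (55.9% of those tested) were called higher and 0 lower, while among all genes 7176 (50%) were higher and 528 lower. The 10 members gained there were Ccl3, Ccl4, Ccl7, Ccl8, Ccl21a, Ccl27a, Cx3cl1, Cxcl2, Cxcl10 and Cxcl14. Without control 1, 2 or 3 the number of members called fell to 5, 3 or 5, all of them among the 9, and it was 10 without cancers 1 and 5 together, 6 of them among the 9.

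**Figure D2:**
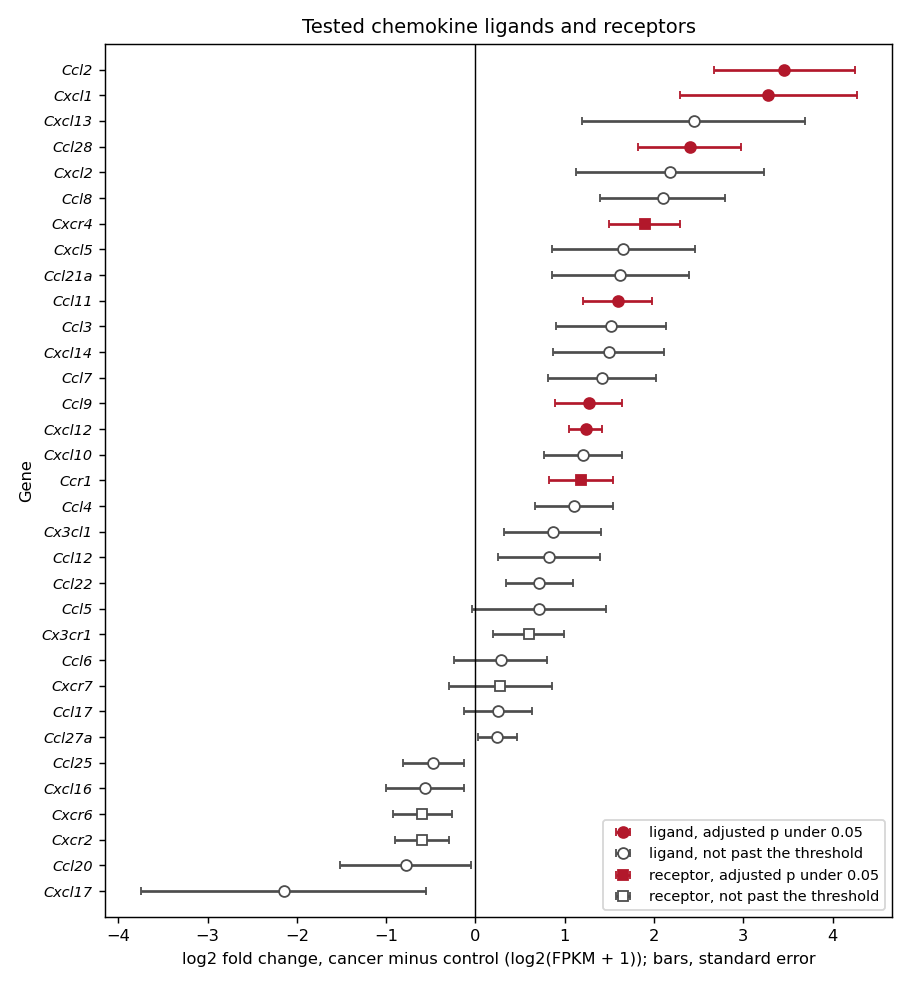
log2 fold change of FPKM + 1 (cancers minus controls, horizontal axis) of 33 of the members tested, with the standard error from limma as bars, circles for ligands, squares for receptors and filled symbols for an adjusted p under 0.05. The 8 filled symbols all lie on the positive side, from 1.18 for Ccr1 to 3.46 for Ccl2, and 6 members lie below 0, none of them past the threshold.

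The Cxcl12 axis moved on both sides, ligand and signalling receptor. Cxcl12, the stromal chemokine that retains blood stem cells and lymphocytes in their niches, lies on chromosome 6 (117168535 to 117181368, mm10). It showed 21, 15, 13, 16 and 13 FPKM across cancers 1 to 5, compared with 5, 6 and 7 for controls 1 to 3, so the lowest cancer lay well above the highest control. Its mean was 15.6 ± 3.29 (SD, n = 5) against 6 ± 1 (SD, n = 3), a log2 fold change of 1.23 (standard error 0.19, limma adjusted p = 0.0036). Its receptor Cxcr4 (chromosome 1, 128588199 to 128592299) showed 11, 5, 3, 4 and 4 FPKM across cancers 1 to 5, compared with 0, 1 and 1 for controls 1 to 3. It rose on the log2 scale by 1.90 (standard error 0.40, limma adjusted p = 0.011), with cancer 1 as the highest. Both kept their call without any 1 sample. The second receptor, Ackr3 (listed as Cxcr7), which takes up and removes Cxcl12, showed 2, 11, 1, 5 and 8 FPKM across cancers 1 to 5, compared with 4, 3 and 3 for controls 1 to 3. Its cancers lay on both sides of the controls (log2 fold change 0.28, standard error 0.58, limma adjusted p = 0.73), and its sign turned without cancer 2 (-0.02). Dpp4, the surface peptidase that inactivates Cxcl12, showed 19, 7, 32, 1 and 3 FPKM in the cancers and 1 in every control (log2 fold change 2.07, limma adjusted p = 0.098).

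**Figure D3:**
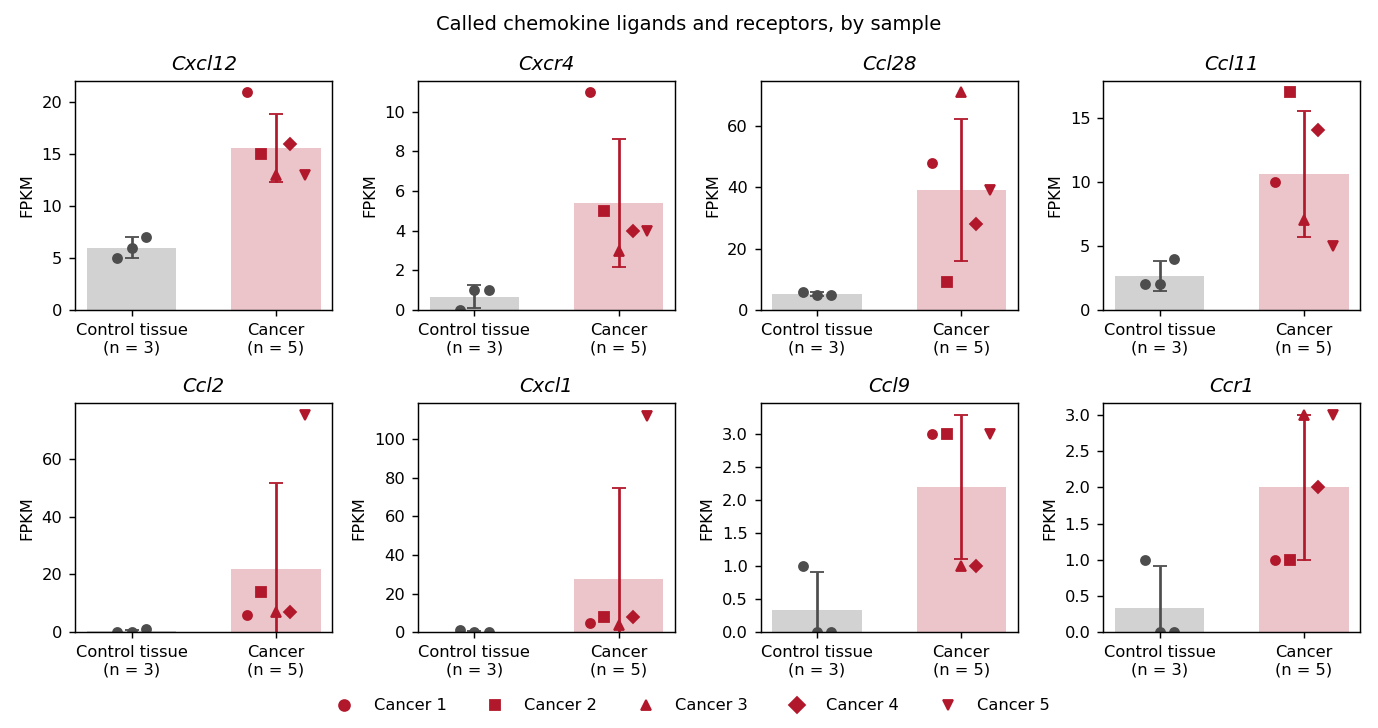
FPKM of 8 called members in each sample, with bars for the group mean, lines for 1 SD (drawn from 0 where it would pass below) and a symbol for each cancer. Cxcl12 stands between 13 and 21 FPKM in the cancers and between 5 and 7 in the controls, while the means of Ccl2 and Cxcl1 in the cancers are carried by cancer 5 (75 and 112 FPKM).

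Of the 4 ligands that call monocytes out of blood, Ccl2 rose in the cancers and the other 3 missed the threshold. Ccl2 (chromosome 11, 82035577 to 82037452), the main ligand of Ccr2, showed 6, 14, 7, 7 and 75 FPKM across cancers 1 to 5, compared with 0, 0 and 1 for controls 1 to 3. On the log2(FPKM + 1) scale it had the largest fold change of the members tested (3.46, standard error 0.79, limma adjusted p = 0.015). Cancer 5 stood far above the other cancers, and without it the log2 fold change was 2.85 (limma adjusted p = 0.0045). Without control 1 or 2 the Ccl2 call was lost (adjusted p = 0.063 and 0.059 from limma). Ccl8, a related ligand that in mice also acts through Ccr8, showed 37, 24, 9, 4 and 5 FPKM across cancers 1 to 5, compared with 3, 1 and 2 for controls 1 to 3. Its groups did not overlap either, but it missed the threshold (log2 fold change 2.10, standard error 0.70, limma adjusted p = 0.052). Ccl8 was highest in cancer 1, where Ccl2 was lowest among the cancers, so the order of the cancers differed between these neighbouring genes. Ccl7 had 5, 5, 3, 0 and 2 FPKM against 1, 0 and 0 (log2 fold change 1.42, limma adjusted p = 0.10), and Ccl12 had 6, 3, 4, 3 and 0 against 1 in every control (0.83, limma adjusted p = 0.28). With 1 cancer left out these passed the threshold, Ccl8 and Ccl7 without cancer 4 (2.42 and 1.85, limma adjusted p = 0.034 and 0.012) and Ccl12 without cancer 5 (1.28, limma adjusted p = 0.0094). The cancer left out was the lowest for each gene, so its removal favours a call. Leaving out any other single sample called none of them. Ccr2, the receptor of Ccl2, Ccl7 and Ccl12, reached only 1 FPKM, in cancers 1 and 3, and was not tested.

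The summed level of macrophage and monocyte markers was higher in the cancers as well. The 9 marker genes summed to 179, 174, 320, 147 and 191 FPKM in the cancers and to 46, 50 and 37 in the controls. Most of each sum was C1qa, C1qb and C1qc. Of the 9, 5 rose (C1qa, C1qb, C1qc, Csf1r and Fcgr1), where 16.2% of all genes tested were called higher. For example, C1qa went from 13, 15 and 10 FPKM to 62, 56, 117, 47 and 51 (log2 fold change 2.24, standard error 0.30, limma adjusted p = 0.0027). Emr1, Cd68, Cd14 and Mrc1 overlapped the controls and missed the threshold (limma adjusted p = 0.11, 0.091, 0.074 and 0.056). With TPM these were called higher, as were 50% of all genes. The sum of the 9 markers was highest in cancer 3 and not in cancer 5, where Ccl2 was highest. Their part in the result was not tested. In whole tissue, more cells of a type and more RNA per cell cannot be told apart.

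The macrophage inflammatory ligands and their receptor Ccr1 mostly stood at low levels, and the ligand Ccl9 and Ccr1 rose. Ccr1 (chromosome 9, 123962126 to 123968692) had 1, 1, 3, 2 and 3 FPKM against 1, 0 and 0, so that its groups touched (log2 fold change 1.18, standard error 0.36, limma adjusted p = 0.037). Ccl9, a ligand of Ccr1 made by myeloid cells, had 3, 3, 1, 1 and 3 FPKM against 1, 0 and 0 (1.27, standard error 0.37, limma adjusted p = 0.035). Both rest on a few steps of the rounding. The calls of Ccr1 and Ccl9 were each lost without control 2 or 3 (adjusted p = 0.13 for Ccr1 and 0.12 for Ccl9 from limma), without cancer 5 (0.068 for both), and for Ccr1 also without cancer 3 or 4 (0.080 and 0.062) and for Ccl9 without cancer 1 or 2 (0.069 and 0.061). Quantile normalization also ended both calls (log2 fold change 0.73 for Ccr1 and 0.74 for Ccl9, limma adjusted p = 0.099 and 0.19), as did leaving out cancers 1 and 5 together (limma adjusted p = 0.082 and 0.14). Ccl3 had 1, 1, 1, 1 and 11 FPKM in the cancers and was listed at 0 in the controls. It missed the threshold with cancer 5 (log2 fold change 1.52, standard error 0.62, limma adjusted p = 0.089) and passed it without that sample (1.0, limma adjusted p = 9.3e-04). There all cancers were equal and all controls were at 0, so that p rests on the variance estimate shared with other genes. It measures no spread of Ccl3 in these samples. Ccl4 was highest in cancer 5 too, with 1, 1, 2, 1 and 5 FPKM against 0, 0 and 1 (1.10, limma adjusted p = 0.082). Ccl5, a ligand released by T cells and other leukocytes, was highest in cancer 1 (23, 2, 7, 1 and 3 FPKM against 2, 3 and 2; 0.71, limma adjusted p = 0.48), and without that tumor its log2 fold change was 0.17. Ccl6, which was already present in control tissue, had 9, 12, 3, 3 and 12 FPKM against 6, 8 and 3 (0.29, limma adjusted p = 0.68).

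The CXC ligands that draw neutrophils differed widely between tumors. Cxcl1 (chromosome 5, 90891245 to 90893115), a ligand of Cxcr2, showed 5, 8, 4, 8 and 112 FPKM across cancers 1 to 5, compared with 1, 0 and 0 for controls 1 to 3. Every cancer lay above every control, and cancer 5 stood far above the next (log2 fold change 3.28, standard error 0.99, limma adjusted p = 0.038). The rise was smaller and more even without cancer 5 (2.48, limma adjusted p = 0.0055), and the Cxcl1 call was lost without any 1 control (adjusted p = 0.082, 0.11 and 0.12 without control 1, 2 and 3) or without cancer 2 or 4 (0.056 and 0.057), and with quantile normalization (2.995, limma adjusted p = 0.054). Cxcl2 had 1, 2, 1, 2 and 52 FPKM and was listed at 0 in every control. It missed the threshold (2.18, standard error 1.06, limma adjusted p = 0.14) but passed it without cancer 5 (1.29, limma adjusted p = 0.0062). Cxcl3 was above 0 only in cancer 4 (2 FPKM) and cancer 5 (13 FPKM) and was not tested. Cxcl5, in the same cluster, was highest in cancer 4 (0, 1, 4, 10 and 8 FPKM against 1, 0 and 0; 1.66, limma adjusted p = 0.14). Without cancer 1, its lowest cancer, whose removal favours a call, Cxcl5 passed the threshold (2.15, limma adjusted p = 0.044). The receptors did not follow. Cxcr2 had 1, 0, 0, 0 and 1 FPKM in the cancers and 1 in every control (-0.60, standard error 0.31, limma adjusted p = 0.16), and Cxcr1 was listed at 0 in every cancer and at 0, 2 and 1 in the controls.

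Cxcl5, Cxcl3, Cxcl1 and Cxcl2 lie in 1 cluster on chromosome 5 (90759299 to 90905938) and summed to 6, 11, 9, 22 and 185 FPKM in cancers 1 to 5 and 2, 0 and 0 in the controls. The 120 bases before the start of the 3 members that were jointly highest in cancer 5 are shown, because they carry the same short motif, and those of Cxcl13, the leading member of cancer 1, are shown for contrast. Sequences are from RefSeq (GRCm38.p6), 5′ to 3′ on the + strand, at chr5:90891125-90891244 for Cxcl1, chr5:90903779-90903898 for Cxcl2, chr5:90785981-90786100 for Cxcl3 and chr5:95956819-95956938 for Cxcl13. Capitals mark GGNNTTTCC on either strand (GGAAANNCC when read on the other), the core of many sites of the inflammatory factor NF-kB, and TATAAA, the TATA box, on the gene's own strand.
Cxcl1: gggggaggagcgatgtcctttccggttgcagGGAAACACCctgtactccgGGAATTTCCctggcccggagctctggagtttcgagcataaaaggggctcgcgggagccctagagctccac
Cxcl2: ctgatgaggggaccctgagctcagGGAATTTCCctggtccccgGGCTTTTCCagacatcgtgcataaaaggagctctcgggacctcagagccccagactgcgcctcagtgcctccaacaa
Cxcl3: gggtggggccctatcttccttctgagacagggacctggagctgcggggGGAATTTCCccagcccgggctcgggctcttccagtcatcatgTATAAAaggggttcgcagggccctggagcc
Cxcl13: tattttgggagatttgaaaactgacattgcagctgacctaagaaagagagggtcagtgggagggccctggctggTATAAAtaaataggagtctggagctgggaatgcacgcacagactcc

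The letters GGAATTTCC stood in the promoters of all 3 members shown from that cluster, with the first base 70 bases before the start of Cxcl1, 96 before Cxcl2 and 72 before Cxcl3. Cxcl1 and Cxcl2 each held a second match, 89 and 77 bases before their starts, and the window of Cxcl13 held none. In 300-base windows (250 before the start and 50 after), GGNNTTTCC was found in 5.82% of the 32851 promoters of the table and in 8 of 49 promoters of members (42 of the 58 members had an entry). The other members with a match were Cxcl9, Cxcl10, Ccl20, Ccr3 and Ccl9, of which Ccr3 was listed at 0 FPKM in every sample. Cxcl5, from the same cluster, was not among those with a match. Of the other members with their highest cancer value in cancer 5, Ccl20 had a match and Ccl3 and Ccl4 were not among those with one. The promoters shown were picked for the motif, and its part in the levels was not tested. TATAAA was found in 8.32% of all promoters and in 10 of the 49. A match is a description of the letters and not of binding. Of the called members, Ccl2 and Ccl11 had no promoter entry.

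Il1b, an upstream cytokine that induces these ligands, was highest in the same tumor. It showed 6, 3, 5, 4 and 36 FPKM across cancers 1 to 5, compared with 1, 1 and 0 for controls 1 to 3 (log2 fold change 2.32, standard error 0.71, limma adjusted p = 0.040). The neutrophil genes Retnlg (1, 1, 0, 1 and 10 FPKM against 0 in every control) and Mmp8 (2 FPKM in cancer 5, otherwise listed at 0) were highest there too. The neutrophil list as a whole (5 of its 6 genes were in the table) summed to 15, 13, 186, 824 and 390 FPKM across cancers 1 to 5, compared with 173, 105 and 366 for controls 1 to 3, and limma called 0 of its 4 tested genes (0 at an unadjusted p under 0.05). Nearly all of that sum was S100a8 and S100a9, which squamous epithelium also expresses. Their part in the result was not tested.

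**Figure D4:**
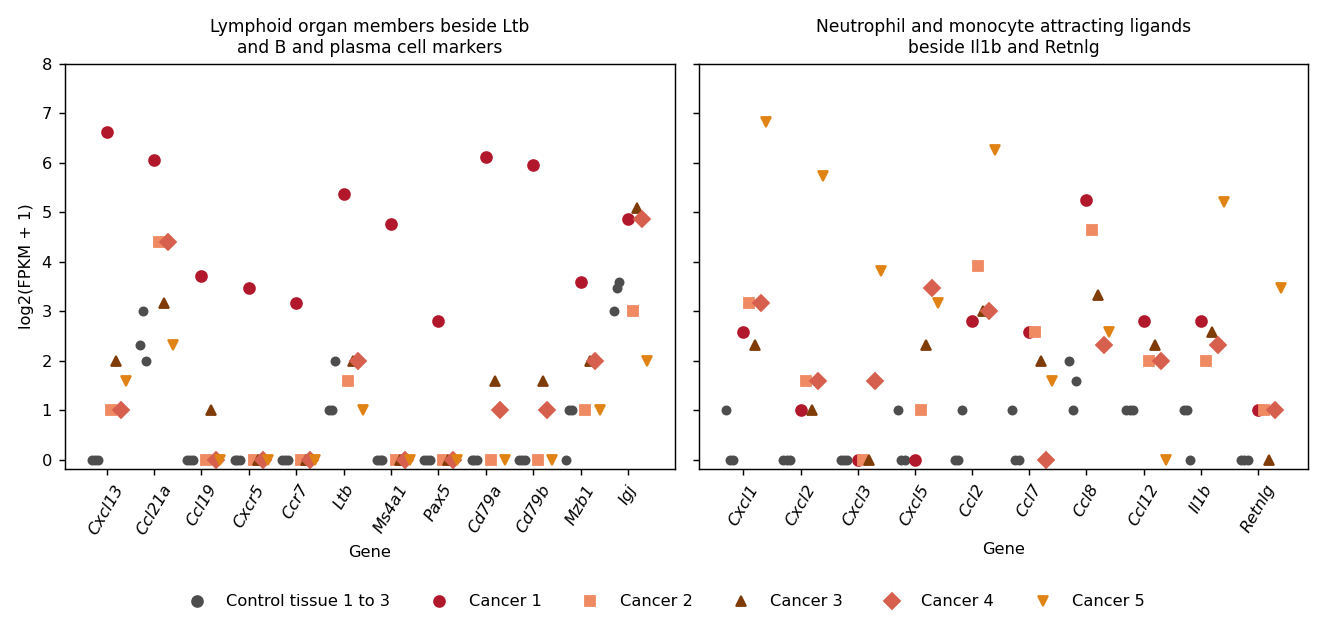
Level as log2(FPKM + 1) of lymphoid organ members beside Ltb and B and plasma cell markers (left) and of the 4 neutrophil- and 4 monocyte-attracting ligands beside Il1b and Retnlg (right), with gray points for the 3 controls and a symbol for each cancer. On the left cancer 1 is the highest sample for every gene but Igj, where cancer 3 (33 FPKM) is above it (28 FPKM). On the right cancer 5 is the highest for Cxcl1, Cxcl2, Cxcl3, Ccl2, Il1b and Retnlg, whereas Cxcl5 is highest in cancer 4 and Ccl7, Ccl8 and Ccl12 are higher in cancer 1 than in cancer 5.

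The members that build lymphoid tissue were concentrated in cancer 1. Cxcl13, which leads B cells into follicles, showed 98, 1, 3, 1 and 2 FPKM in the cancers and was listed at 0 in every control. It did not pass the threshold over all cancers (log2 fold change 2.44, standard error 1.25, limma adjusted p = 0.16), and passed it without cancer 1 (1.40, limma adjusted p = 0.014). Its receptor Cxcr5, a marker of follicular lymphocytes, had 10 FPKM in cancer 1 and 0 in the remaining 7 samples. Ccl21a and Ccl19, which bring T cells and dendritic cells to the same tissue, showed the same tumor as the highest. Ccl21a showed 65, 20, 8, 20 and 4 FPKM across cancers 1 to 5, compared with 4, 7 and 3 for controls 1 to 3 (1.62, standard error 0.77, limma adjusted p = 0.13). Ccl19 had 12 FPKM in cancer 1, 1 in cancer 3 and 0 elsewhere. Their receptor Ccr7 had 8 FPKM in cancer 1 only. The near-identical copies Ccl21b and Ccl21c were listed at 0, and how reads were split among them is uncertain.

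In all, 7 members were above 0 in cancer 1 while the remaining 7 samples listed 0. These were Cxcr5, Ccr7, Ccr6 (5 FPKM), the receptor of Ccl20, and Ccr10, Cxcr3, Xcl1 and Xcr1 at 1 FPKM each. Of the 39 members with a single highest value among the cancers, 17 had it in cancer 1, 7 in cancer 5, 6 in cancer 3, 5 in cancer 4 and 4 in cancer 2. Lymphocyte markers stood out in the same tumor. B and plasma cell markers summed to 221 FPKM in cancer 1, to 4 to 40 in cancers 2 to 5 and to 7 to 12 across controls, and Ms4a1 (26 FPKM) and Pax5 (6 FPKM) were above 0 in cancer 1 only, whereas the plasma cell gene Igj was highest in cancer 3 (28, 7, 33, 28 and 3 FPKM in cancers 1 to 5). T cell markers summed to 43 FPKM in cancer 1, to 3 to 10 in cancers 2 to 5 and to 3 to 4 across controls, and neither list had a gene past the threshold in limma (1 gene, Cd2, at an unadjusted p under 0.05). Ltb, the cytokine that organizes lymphoid tissue, showed 40, 2, 3, 3 and 1 FPKM across cancers 1 to 5, compared with 1, 1 and 3 for controls 1 to 3. Cancer 1 also had the lowest sum of gastric gland markers among the cancers (522 FPKM, against 4495 to 59944 in cancers 2 to 5 and 108786 to 173234 across controls). The part of these cells in the levels of the members was not tested.

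Among the mucosal ligands, Ccl28 rose and the others showed no difference beyond the spread. Ccl28 (chromosome 13, 119623819 to 119654358), an epithelial chemokine that draws antibody-secreting cells through Ccr10, showed 48, 9, 71, 28 and 39 FPKM across cancers 1 to 5, compared with 6, 5 and 5 for controls 1 to 3. Every cancer lay above every control, with cancer 2 nearest to them, and the mean was 39.0 ± 23.1 (SD, n = 5) against 5.33 ± 0.577 (SD, n = 3; log2 fold change 2.40, standard error 0.58, limma adjusted p = 0.018). The Ccl28 call was lost without control 1, 2 or 3 (adjusted p = 0.059, 0.062 and 0.063 from limma) and without cancers 1 and 5 together (2.12, adjusted p = 0.090 from limma), with every log2 fold change still above 2. Its receptor Ccr10 was seen only in cancer 1, at 1 FPKM. Ccl20, which attracts Ccr6-bearing cells to mucosal epithelium, had 0, 8, 4, 7 and 9 FPKM against 10, 6 and 8 (-0.78, standard error 0.74, limma adjusted p = 0.42), and without cancer 1 its log2 fold change was -0.19. Ccl27a was nearly even, at 9 to 15 FPKM in the cancers and 7 to 12 in the controls (0.25, standard error 0.22, limma adjusted p = 0.40), although its log2 fold change with TPM was 1.17 (limma adjusted p = 0.0051), beside a median of 0.81 over all genes. Ccl25, known from the small intestine, stayed at 0 to 2 FPKM in both groups, and its receptor Ccr9 was listed at 0.

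Of the eotaxins, Ccl11 rose. Ccl11 (chromosome 11, 82057832 to 82062955), made by fibroblasts and epithelial cells to draw eosinophils through Ccr3, showed 10, 17, 7, 14 and 5 FPKM across cancers 1 to 5, compared with 2, 2 and 4 for controls 1 to 3. The lowest cancer lay just above the highest control (log2 fold change 1.59, standard error 0.39, limma adjusted p = 0.018), and the Ccl11 call was lost without control 1 or 2 (adjusted p = 0.075 and 0.071 from limma). Its receptor Ccr3 was listed at 0 in every sample, as were 4 of 5 eosinophil markers. The remaining marker, Siglec5, was lower in the cancers (0, 0, 0, 1 and 0 FPKM against 1 in every control, log2 fold change -0.80, limma adjusted p = 0.045), though not past the threshold with TPM (-0.75, limma adjusted p = 0.15). Ccl24 was seen only in cancer 2, at 1 FPKM, and Ccl26 in no sample. Ccl17 and Ccl22, ligands of Ccr4 on T cell subsets, stayed at 0 to 2 FPKM without a call (log2 fold changes 0.25 and 0.72), and the receptors Ccr4 and Ccr8 were listed at 0.

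The interferon-induced ligands were low. Cxcl10 showed 5, 2, 5, 1 and 2 FPKM across cancers 1 to 5, compared with 1, 1 and 0 for controls 1 to 3 (log2 fold change 1.20, standard error 0.44, limma adjusted p = 0.065). It passed the threshold without cancer 4, its lowest cancer, whose removal favours a call (1.42, limma adjusted p = 0.035). Cxcl9 was above 0 in cancer 1 (2 FPKM) and cancer 3 (4 FPKM), Cxcl11 reached 1 FPKM in cancer 3 and in control 1, and their receptor Cxcr3 was at 1 FPKM in cancer 1 only. Ifng, which induces all 3 ligands, was listed at 0 in every sample. Cx3cl1, a membrane-bound chemokine of endothelium, neurons and epithelium, had 68, 23, 54, 29 and 11 FPKM against 20, 14 and 16. Cancers lay on both sides of the controls (0.86, standard error 0.54, limma adjusted p = 0.23), while it was called with TPM (1.82, limma adjusted p = 0.028) and with array weights (1.21, limma adjusted p = 0.036). Its receptor Cx3cr1, a marker of tissue macrophages, had 2, 1, 6, 2 and 1 FPKM against 1 in every control (0.60, limma adjusted p = 0.27), or 0.29 without cancer 3.

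The 3 other CXC ligands of the epithelium took different courses. Cxcl17, a chemokine of mucosal epithelia including that of the stomach, was the most abundant member of the control tissue, with 143, 144 and 161 FPKM. It had 0, 117, 26, 203 and 68 FPKM in cancers 1 to 5, so that cancer 4 exceeded every control and cancer 1 was listed at 0. The difference was within the spread (log2 fold change -2.15, standard error 1.60, limma adjusted p = 0.31), and without cancer 1 the fold change shrank to -0.88. The order of the cancers was close to that of the summed gastric gland markers (522, 59944, 4495, 37312 and 12750 FPKM), and whether the 2 are tied was not tested. Cxcl16, which exists as a membrane-bound scavenger and a soluble ligand of Cxcr6, had 6, 16, 15, 14 and 11 FPKM against 37, 14 and 11 (-0.57, standard error 0.44, limma adjusted p = 0.33), without control 1 it was -0.07, and with TPM its sign turned (0.35). Cxcr6 had 1, 0, 1, 1 and 0 FPKM against 2, 1 and 1 (-0.60, limma adjusted p = 0.19). Cxcl14, a homeostatic chemokine of epithelium and fibroblasts, had 5, 17, 15, 50 and 19 FPKM against 8, 6 and 3 (1.49, standard error 0.62, limma adjusted p = 0.097). Without cancer 1, its lowest cancer, whose removal favours a call, Cxcl14 passed the threshold (1.88, limma adjusted p = 0.030). The loci of Cxcl16, Cxcl17, Cxcr6, Ccl6, Ccl21a and Ccl27a each were listed together with at least 1 other gene, and Cxcl10 and Cxcl11 shared a listed locus with each other and a further gene, so reads could be shared.

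Genes that act with the chemokine receptors were followed as a list of 63, of which 53 were tested, 10 rose (18.9% of those tested, beside 16.2% of all genes) and 4 fell (7.55%, beside 18.3%), with a median log2 fold change of 0.38 beside -0.04 for all genes. Without control 1, 2 or 3 the list had 6, 4 or 5 genes higher and 1, 2 or 1 lower, and without cancer 3 it had 6 higher and 2 lower. Of 14 tested genes that couple the receptors to G proteins, 5 rose and 2 fell. The G protein subunit Gng2 had 16, 8, 24, 7 and 13 FPKM in the cancers and 1 in every control (2.74, standard error 0.37, limma adjusted p = 0.0026), and the receptor kinase Grk3 (listed as Adrbk2) had 18, 6, 20, 12 and 26 FPKM against 2 in every control (2.40, standard error 0.41, limma adjusted p = 0.0055). The arrestins, which shut receptors off and carry them into the cell, moved apart. Arrb2 had 21, 20, 22, 14 and 17 FPKM against 10, 10 and 12 (0.75, limma adjusted p = 0.014), and Arrb1 had 7, 10, 4, 5 and 6 FPKM against 13, 15 and 19 (-1.21, limma adjusted p = 0.013). With TPM, Arrb1 was no longer past the threshold (-0.34, limma adjusted p = 0.32), as held for all 4 genes that fell, and 31 genes of the list (58.5% of those tested, beside 50% of all genes) were called higher.

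Of 15 tested genes of migration signalling, 2 rose, and Plcb3 and Rac1 fell. Was, which acts in blood cells, was among those that rose, with 6, 1, 1, 1 and 1 FPKM against 0 in every control. For 4 of the cancers this is 1 step of the rounding (1.36, standard error 0.44, limma adjusted p = 0.045). The sign of Rac1 (-0.66) turned with TPM (0.32, limma adjusted p = 0.094). Of 5 tested upstream cytokines only Il1b was called, while 5 of the 12 listed were at 0 in every sample. Of 11 regulators of the NF-kB and interferon response only Irf8, a factor of myeloid and B cells, was called (18, 6, 12, 6 and 8 FPKM against 3, 3 and 4; 1.24, standard error 0.35, limma adjusted p = 0.030). Of 8 chemokine genes outside the symbol rule only Cmklr1, the chemerin receptor of macrophages, was called, with 3, 2, 2, 1 and 2 FPKM in the cancers and 0 in every control (1.55, standard error 0.22, limma adjusted p = 0.0028). The platelet chemokine Pf4, which lies in the chromosome 5 cluster, had 6, 5, 9, 2 and 13 FPKM against 2, 2 and 4 (0.99, limma adjusted p = 0.14).

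Markers of other cell types also moved between the groups, while the 7 general leukocyte markers were mixed. These summed to 284, 46, 80, 53 and 45 FPKM across cancers 1 to 5, compared with 49, 58 and 60 for controls 1 to 3. Cd53 was called higher and Lcp1 lower (log2 fold changes 1.58 and -0.99, limma adjusted p = 0.046 and 0.044). Lcp1 made up most of the control sums (34, 43 and 41 FPKM), while Coro1a, Laptm5, Cd52 and Cd53 were above every control in every cancer. Endothelial markers summed to 16 to 52 FPKM in the cancers and 8 to 13 in the controls, with 4 of 6 called higher. Of 4 lymphatic markers, 2 rose, Prox1 and Flt4, the latter at 1 FPKM in every cancer and 0 in every control. Lyve1 and Pdpn missed the threshold (log2 fold changes 0.18 and 0.95, limma adjusted p = 0.72 and 0.061). Fibroblast markers summed to 49 to 241 FPKM in the cancers and 57 to 104 in the controls, with 0 of 5 called by limma (1 at an unadjusted p under 0.05), whereas TPM called 4 of them higher (Col1a1, Col1a2, Pdgfra and Dcn, log2 fold changes 1.18 to 2.67, beside a median of 0.81 over all genes). Mast cell markers summed to 1 to 33 FPKM in the cancers and 35 to 69 in the controls, with 4 of 6 lower. Neuroendocrine markers summed to 7575 to 16703 FPKM in the cancers and 120 to 181 in the controls, with 5 of 5 higher. Every gastric gland and squamous marker was above 0 in every control, except Pgc, which was listed at 28832 FPKM in control 1 and at 0 in controls 2 and 3, whereas summed squamous markers ranged from 0 to 1588 FPKM in the cancers. Sources of the single chemokines were not separated in these tissue samples, and the part of these cells in the results was not tested.

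The exact permutation test of each member read the same values that made the limma calls, so it adds no support of its own. Over the 56 possible assignments to the groups (two-sided, unadjusted), 5 of the 9 called members gave an exact p = 0.018, the smallest that 5 against 3 samples allow. They included Cxcl12, Cxcr4, Ccl2 and Cxcl1. Ccl28 and Ccl11 gave p = 0.036 by that permutation test, and Ccl9 and Ccr1, whose groups overlapped, gave p = 0.071.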

How the data were processed

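RNA of 5 SCJ cancers and 3 control SCJ samples was sequenced as poly(A) directional libraries. The authors used cutadapt 1.8 for trimming, cuffquant for quantifying the UCSC genes of mm10 and cuffnorm 2.2.1 for normalized FPKM (the submitters' processing notes also list TopHat2 2.0.13). The deposited FPKM are whole numbers for 100% of values and were treated as a score, not as counts, so depth is unknown and a 0 may be a failed estimate. Cuffnorm's normalization option is not given in the sources used here. The 14357 genes reaching 1 FPKM in 3 or more samples entered a limma 3.58.1 fit of log2(FPKM + 1) in R 4.3.3, with a trended eBayes prior and Benjamini-Hochberg adjustment over all of them. Permutation tests used scipy 1.17.1. The fit was tested on simulated data. Values in every sample are given for each member called or without overlap between groups and for its known partners. Some genes that enter the counts are not reported here by name. The members and lists were chosen with earlier results of these data known. Gene starts were moved by 1 base to count from 1. Alternatives were TPM, quantile normalization, a pseudocount of 0.1, no filter, a mean FPKM of at least 5, array weights, an untrended prior, a replicate block and samples left out.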

Additional observations from a re-analysis of the deposited data

Results flagged for a closer look

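In 16 of 47 members looked at, a single cancer stood apart from the other 4, by a gap to its nearest neighbour that took more than 0.71 of the group's range on the log2(FPKM + 1) scale. Chance flags about 1 in 20, or 2.35 of 47, and for genes that step between 0 and 1 FPKM such a gap is easily reached.

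Cancer 1 stood apart in 9 members. The gap took 0.822 of the range for Cxcl13 (98 FPKM), 0.73 for Ccl19 (12 FPKM) and the whole range (1) for Cxcr5, Ccr7, Ccr6, Ccr10, Cxcr3, Xcl1 and Xcr1, of which the last 4 rest on 1 FPKM. Cancer 5 stood apart in 4 members, upward with 0.876 for Cxcl2 (52 FPKM), 0.811 for Cxcl1 (112 FPKM) and 1 for Ccl3 (11 FPKM), and downward with 0.712 for Ccl12 (0 FPKM). The others included Cxcl11 (1 FPKM) in cancer 3 and Ccl24 (1 FPKM) in cancer 2, each with a gap of 1 that rests on a step of 1 FPKM.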

How the results depend on the processing

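The count of members called higher (9) was 14 with a pseudocount of 0.1, 19 with TPM, 20 with array weights, 5 with quantile normalization, 3 with the replicate block and 3 to 11 with each sample left out, lowest without control 2. Members called lower (0) became 1 with array weights and 1 without cancers 1 and 5, in both cases Cxcr2. All genes called (4948) became 7704 with TPM, 8148 with array weights, 1534 with the replicate block and 2548 to 5232 with each sample left out. Pathway genes called higher (10) became 31, 18 and 5 with TPM, array weights and the block and 4 to 12 with each sample left out, and those called lower (4) became 0, 1 and 0 with TPM, quantile normalization and the block, 1 without cancers 1 and 5 and 1 to 5 with each sample left out. Leaving out cancers 1 and 5 together was chosen after their values were seen. Replicate numbers did not pair the samples (correlations of deviations -0.021, -0.19 and -0.10), and under the block 8 of the 9 lost their call.

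Signs turned for 4 members that were not called, and for Trp53. Ccl17 (0.25) went to -0.14 with quantile normalization and ranged from -0.083 to 0.48 with each sample left out. Ccl6 (0.29) went to -0.25 with array weights and -0.092 without cancers 1 and 5, and ranged from -0.044 to 0.54. Cxcl16 went to 0.35 with TPM. Cxcr7 went to -0.12 with array weights and -0.051 with the block, and ranged from -0.022 to 0.62. Trp53 went to 0.86 with TPM, 0.13 with quantile normalization and 0.20 without cancers 1 and 5, and ranged from -0.29 to 0.027. The 9 called members kept a positive sign under every alternative run. What caused these changes was not tested. Rounding to whole FPKM limits members near 1 FPKM, and array weights and TPM also raised the calls over all genes.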

Other observations

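The members that are neighbours on a chromosome were summed as a description, with gaps of under 500000 bases. On chromosome 11, Ccl2, Ccl7, Ccl11, Ccl12, Ccl8 and Ccl1 (82035577 to 82179812, mm10) summed to 64, 63, 30, 28 and 87 FPKM in cancers 1 to 5 and 7, 4 and 8 in the controls. Ccl5, Ccl9, Ccl6, Ccl3 and Ccl4 (83525779 to 83664683) summed to 37, 19, 14, 7 and 34 FPKM against 9, 11 and 6. On chromosome 5, Cxcl9, Cxcl10 and Cxcl11 (92321331 to 92414627) summed to 7, 2, 10, 1 and 2 FPKM against 2, 1 and 0.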
